A study of Mus musculus with 2 samples.

Results

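The genes of the proteasome were examined in H3K27ac HiChIP of mouse microglia. They were the protein-coding mm10 genes whose symbol starts with Psma, Psmb, Psmc, Psmd, Psme or Psmg followed by a digit, without the immunoproteasome genes Psmb8 and Psmb9. The rule gave 48 genes of 21883 protein-coding genes in the RefSeq annotation of GRCm38, on 16 chromosomes. Of these, 46 encode subunits, activators or assembly chaperones of the proteasome. The other 2 carry the name but not the function: Psmc3ip encodes HOP2, a factor of meiotic recombination, and Psme3ip1 encodes a binding partner of the activator PA28 gamma. The rule reads the symbols only, though it was proposed with earlier results of these data known.

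HiChIP captures pairs of genomic segments that lie close together in chromatin with H3K27ac, the histone acetylation typical of promoters and enhancers in use. The cells were CD45-intermediate, CD11b-intermediate microglia sorted from the forebrain of wild-type male C57BL/6J mice of 8 to 24 weeks. In the day 6 group the middle cerebral artery had been occluded for 60 minutes (MCAO, a model of ischemic stroke) and cells came from the ischemic hemisphere 6 days after onset. In the sham group the mice had the same surgery without occlusion. Each group was 1 library, and the labels do not say how many animals were behind it.

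The proteasome degrades proteins that carry ubiquitin chains. Its 20S core is a barrel of alpha rings, which gate the entry, around beta rings, which hold the proteolytic sites. A 19S cap of ATPase and non-ATPase subunits binds, deubiquitinates and unfolds the substrate, and the PA28 and PA200 activators can take the place of the cap. In microglia and other antigen-presenting cells the core can exchange its catalytic subunits for those of the immunoproteasome, which makes peptides for MHC class I.

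The deposited lists held 19061 called interactions in sham and 42905 at day 6, with 501608 and 1074041 contacts. An interaction joins a pair of 10 kb bins (its anchors), and its contacts are the whole-number count of read pairs that join them. The total behind the caller's model was inferred as 3629250 contacts in sham and 2258259 at day 6 (modelled contacts). It is the median, over called interactions, of the expected count over the modelled probability. Called interactions thus held 13.8% of modelled contacts in sham and 47.6% at day 6, and the length of the lists does not follow this inferred total. All 12 microglia markers examined had interactions in both lists, with 0.686% of called contacts in sham and 0.391% at day 6. Of 8 markers of monocytes and border macrophages, 3 had interactions in sham and 6 at day 6 (0.0638% and 0.047% of contacts). Ccr2, Mrc1 and Plac8 had them in both lists, with 144, 45 and 131 contacts in sham and 77, 170 and 166 at day 6. Ly6c2 and Cd163 had none in either list. Of 6 markers of T cells and neutrophils, none had an interaction in sham and 1 did at day 6, with 24 contacts. For 6 neuronal markers the counts were 2 and 3 (0.0433% and 0.014% of contacts), and for 5 of astrocytes 4 and 4 (0.0696% and 0.0592%). For 5 of oligodendrocytes they were 2 and 2 (0.0437% and 0.0451%), and for 5 of endothelial cells 3 and 3 (0.0177% and 0.0301%). The part of other cells in the values below was not tested, and in bulk libraries fewer cells with a contact and less contact per cell cannot be told apart. Interactions below the caller's threshold are not in the lists, so that a gene without an interaction has an unknown count. Such a gene enters the counts and medians below with 0 contacts and the prior, and no fold of its own is printed.

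The promoters of these genes held an ETS core more often than those of all genes, which the choice of genes did not use and which was not tested. RefSeq promoter windows of GRCm38.p6, from 250 bases before to 50 bases after an annotated start, were given for 40 of the 48 genes. The letters CCGGAAG are a core to which ETS factors such as GABP can bind. They were found on either strand in 16 of these 40 genes (40.0%), against 12.9% of the 17491 protein-coding genes with a window. Genes with several starts can have several windows and were counted once. No such site overlapped another searched motif. The median GC content was 58.2% over the windows of the proteasome genes and 56.3% over all windows. The antioxidant response core TGACNNNGC, of the kind bound by Nfe2l1 and Nfe2l2, was present in 6 of the 40 genes (15.0%, against 14.8%), and CCAAT in 15 (37.5%, against 42.3%). The YY1 core AAGATGGC was present in 3 (7.5%, against 3.57%) and the palindromic NRF1 site in 2 (5.0%, against 1.47%). A match describes the letters only.

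The ETS core occurred in genes with more and in genes with fewer contacts at day 6, as defined further on. It was found in the windows of 8 of 18 genes with more contacts, 2 of 4 with fewer and 2 of 9 with neither. The 150 bases before the start are shown for 6 such genes, 2 with fewer contacts (Psma6, Psmc1) and 4 with more (Psmc2, Psmc6, Psmd4, Psme3), 5′ to 3′ on the strand of the gene. Capitals mark CCGGAAG or its reverse complement. On GRCm38.p6 they lie at chr12:55398675-55398824 for Psma6, chr12:100110052-100110201 for Psmc1, chr5:21785125-21785274 for Psmc2, chr14:45329674-45329823 for Psmc6 and chr11:101316063-101316212 for Psme3, all on the plus strand. That of Psmd4 lies at chr3:95042615-95042764 on the minus strand. For Psma6 the window of the downstream of its 2 annotated starts is shown, and for Psmc2 that of the upstream.
Psma6: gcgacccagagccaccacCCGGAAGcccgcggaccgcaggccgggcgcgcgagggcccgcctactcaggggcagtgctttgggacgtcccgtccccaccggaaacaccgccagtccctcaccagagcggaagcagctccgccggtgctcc
Psmc1: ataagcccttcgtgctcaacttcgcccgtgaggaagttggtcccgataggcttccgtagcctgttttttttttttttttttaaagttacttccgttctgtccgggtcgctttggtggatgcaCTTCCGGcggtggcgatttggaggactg
Psmc2: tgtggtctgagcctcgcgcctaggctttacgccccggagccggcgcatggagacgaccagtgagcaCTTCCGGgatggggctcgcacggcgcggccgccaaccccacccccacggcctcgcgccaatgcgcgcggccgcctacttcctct
Psmc6: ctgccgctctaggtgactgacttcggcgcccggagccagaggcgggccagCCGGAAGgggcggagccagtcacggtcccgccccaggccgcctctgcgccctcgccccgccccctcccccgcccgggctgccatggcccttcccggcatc
Psmd4: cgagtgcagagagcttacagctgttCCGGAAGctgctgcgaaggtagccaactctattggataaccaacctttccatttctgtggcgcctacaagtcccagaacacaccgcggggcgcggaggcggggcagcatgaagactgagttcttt
Psme3: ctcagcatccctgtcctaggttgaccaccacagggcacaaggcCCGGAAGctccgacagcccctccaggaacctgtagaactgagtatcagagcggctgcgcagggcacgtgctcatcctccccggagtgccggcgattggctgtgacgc

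Most of the proteasome genes had an interaction at day 6, and fewer did in sham. An interaction was given to a gene when an anchor overlapped its span with 1 kb on each side. By this measure 26 of the 48 genes (54.2%) had an interaction in sham and 45 (93.8%) at day 6, against backgrounds of 43.0% and 61.3% of all protein-coding genes. For 19 genes (39.6%) interactions were called at day 6 alone, against 20.0% of all genes, and for none in sham alone (background 1.66%). Of all genes, 8100 had no interaction in either list. Among genes with an interaction in a list, those at day 6 alone were 19 of 45, against 4369 of 13783. The 3 genes without an interaction in either list were Psma8, which encodes an alpha subunit of the testis, Psme2b, a copy of the activator gene Psme2, and Psmd6, which encodes the 19S lid subunit Rpn7. Proteasome genes are not long, with a median span of 11.9 kb against 17.2 kb for all genes.

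Part of the contrast moved with the length of the lists. When only the 19061 day 6 interactions with the lowest q-values were kept, 37 of the 48 genes had an interaction at day 6 (background 49.9%), 14 at day 6 alone (background 13.5%) and 3 in sham alone (6.25%, background 6.64%), namely Psmb5, Psmb6 and Psmc1. With a q-value limit of 1e-05 in both lists, 15 genes had an interaction in sham (background 25.8%) and 39 at day 6 (background 52.8%). In these settings too the share of the proteasome genes was above that of all genes in both libraries.

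**Figure D1:**
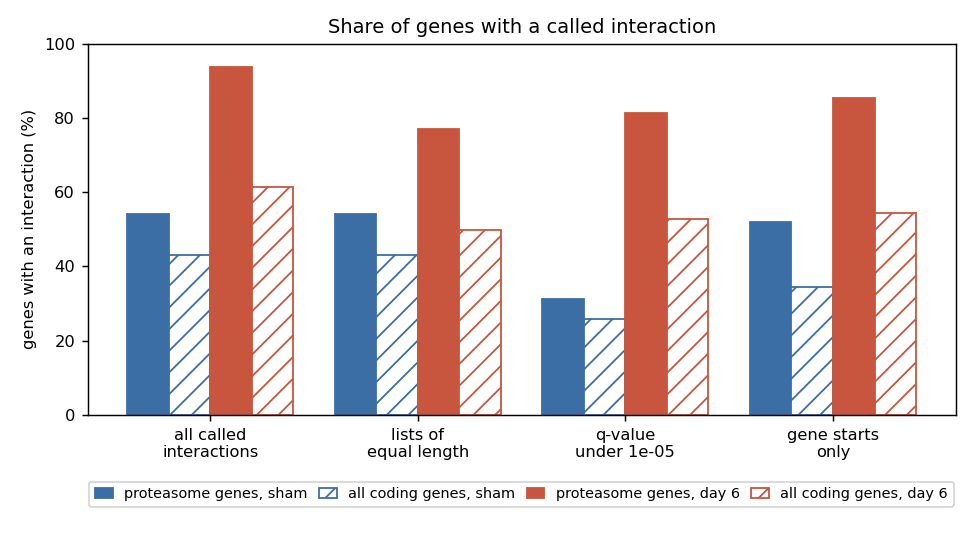
Share of genes with a called interaction in percent, for the 48 proteasome genes (filled bars) and all protein-coding genes (hatched bars), in sham (blue) and at day 6 (red), under 4 ways of counting. With all called interactions the proteasome genes stand at 54.2% and 93.8%, and all genes at 43.0% and 61.3%.

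In all, the 48 genes had 86 distinct interactions with 2007 contacts in sham and 217 with 5510 contacts at day 6, which is 0.400% and 0.513% of the called contacts. A gene with interactions had a median of 2.5 in sham and 5 at day 6. The highest number was 13 in both lists, for Psma1 in sham and for Psmd9 at day 6. For 32 genes the anchors also lay on another coding gene, whose interactions cannot be told from theirs. For 13 genes they lay on no other.

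To compare the libraries, the contacts of a gene were summed over its interactions, 5 contacts scaled to the library were added, and the sum was divided by the total of called contacts before a log2 ratio (day 6 over sham) was formed. A ratio of at least 1 was counted as more contacts and of -1 or less as fewer, for genes with at least 3 interactions in 1 of the lists. With 1 library per group there is no replicate check and no test, and the rule of size stands in for one. Of 36 proteasome genes with at least 3 interactions, 18 had more contacts at day 6 (50.0%, background 39.1% of 9635 genes), 5 had fewer (13.9%, background 10.3%) and 13 had neither. Of the 18, 13 (72.2%) had no interaction in sham, against 52.6% of all genes with more contacts. By the rule, a gene with at least 3 interactions at day 6 and none in sham always passes the limit. The calls of these 13 thus only restate that they were called in 1 list. With lists of equal length 5 of these 13 still had at least 3 interactions: Psma4, Psmb3, Psmc4, Psme3 and Psme3ip1. Restricted to the 23 of these 36 that both lists hold, 5 had more and 5 fewer contacts (21.7% each), against backgrounds of 23.4% and 12.7%.

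The median log2 ratio was 0.92 over the 36 genes and 0.55 over all genes with at least 3 interactions. Over genes with interactions in both lists it was 0.23 and 0.17. With lists of equal length 7 of 23 proteasome genes had more contacts and 3 fewer, beside 30.1% and 17.9% of all genes, and the median was 0.39 against 0.19. With gene starts only the proteasome genes did not stand above the rest, with 13 of 30 (43.3%, against 42.2%) and a median of 0.57 against 0.63. Other scalings move all genes: the median of all genes was 1.56 when contacts of shared interactions set the scale and 2.20 when modelled contacts did, and that of the proteasome genes 1.95 and 2.60. No proteasome gene had fewer contacts under either scaling, beside 1.93% and 0.82% of all genes. More contacts were found for 27 and 31, beside 66.3% and 84.0% of all genes.

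**Figure D2:**
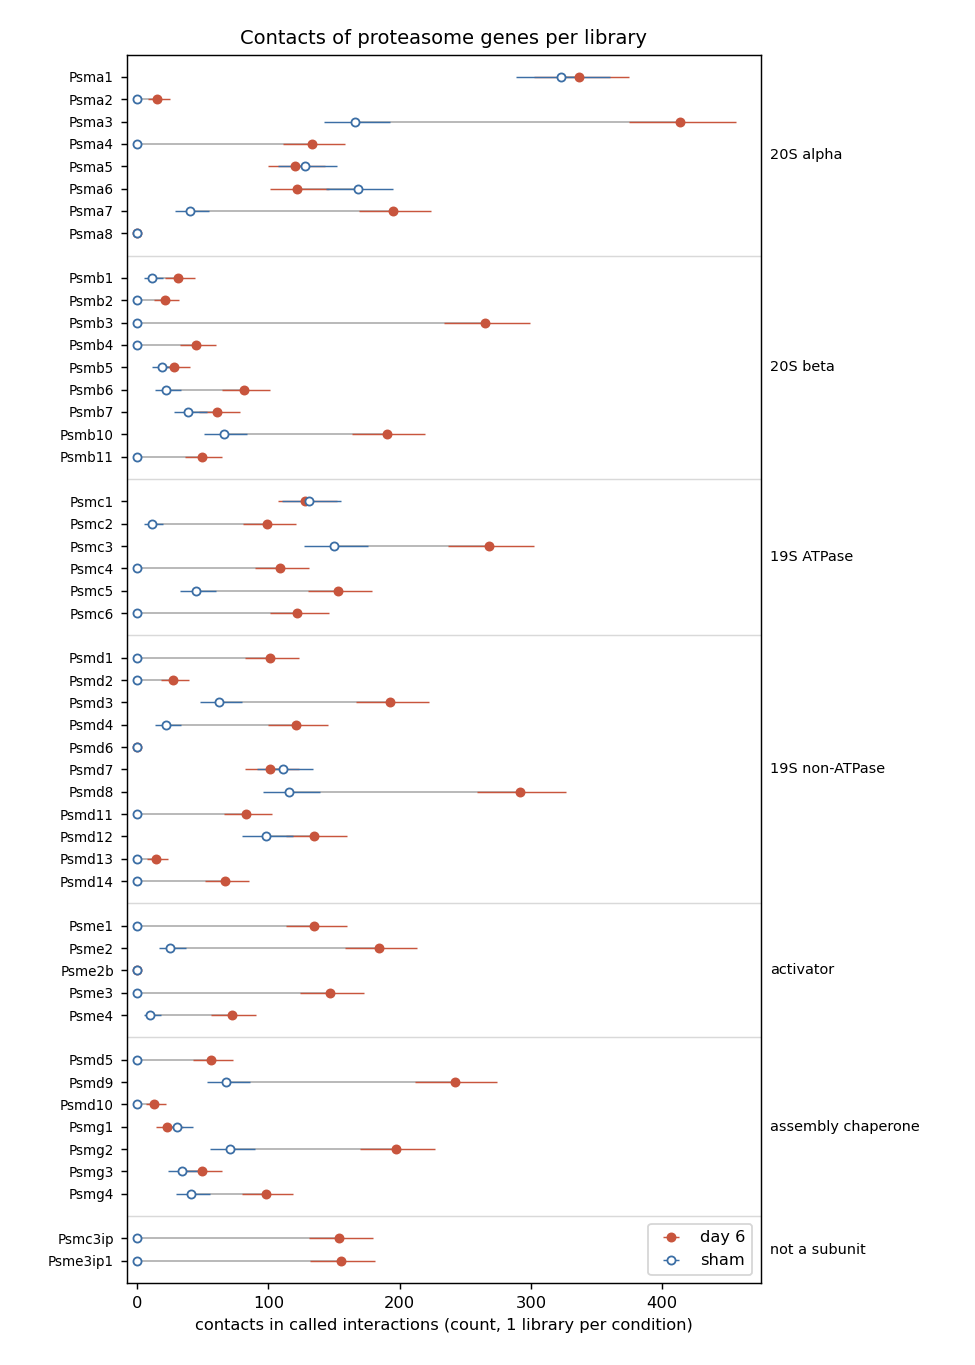
Contacts in called interactions of each of the 48 genes in sham (open blue) and at day 6 (filled red), by role, with exact 95% Poisson intervals that cover counting error only. A point at 0 means that no interaction was called. Psma1 is the highest in sham with 323 contacts and Psma3 at day 6 with 414.

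The alpha subunit genes of the 20S core had the most sham contacts of the groups and the most genes with fewer contacts at day 6. Of 6 with at least 3 interactions, 2 had more, 3 fewer (none when shared interactions or modelled contacts set the scale) and 1 neither, with a median log2 ratio of -0.40. Psma1, which encodes alpha6, had 13 interactions with 323 contacts in sham (95% Poisson interval 289 to 360) and 9 with 337 at day 6 (302 to 375). The counts themselves overlap within counting error. As a share of called contacts this is a log2 ratio of -1.02 (-1.26 to -0.81 by counting error), just past the limit, which is -0.42 with lists of equal length, 0.056 when shared interactions set the scale and 0.73 when modelled contacts did.

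All Psma1 interactions came from 1 anchor, the bin at 114270001 to 114280000 on chromosome 7, which holds its annotated start and no other coding gene. In sham, 10 of the 13 ran to bins of Pde3b, which encodes a phosphodiesterase of cyclic nucleotides, 140 to 250 kb away. At day 6, 5 of 9 did. Of the 13, 5 were called in both lists, with 29, 20, 19, 34 and 14 contacts in sham and 53, 23, 30, 54 and 16 at day 6. Each of these 5 thus had the higher count at day 6. The largest day 6 interaction of the gene, with 77 contacts, reached, 40 kb off, a bin that holds no coding gene, and it was not called in sham.

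Psma6, which encodes alpha1, had 168 contacts (144 to 195) in 6 interactions in sham and 122 (101 to 146) in 4 at day 6. The log2 ratio was -1.51 (-1.91 to -1.22), but 0.22 with scaling by modelled contacts. Its anchors contacted bins of Nfkbia, the inhibitor IkB alpha of NF-kB, 90 to 110 kb away, in 3 sham and 2 day 6 interactions. The 2 called in both lists had 21 and 34 contacts in sham and 42 and 43 at day 6. So the sum of the gene was lower while these 2 interactions had higher counts.

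For Psma5 (alpha5) sham gave 128 contacts (107 to 152) and day 6 gave 120 (99.5 to 143), log2 -1.15 (-1.56 to -0.82), but 0.57 with scaling by modelled contacts and -0.05 without the flank. Its partner bins included Sort1, the sorting receptor sortilin, in both lists, and 1 of its own bins also lies on Sort1. Psma7 (alpha4), at the other end, had 40 contacts (28.6 to 54.5) in 2 interactions in sham and 195 (169 to 224) in 9 at day 6, log2 1.13 (0.69 to 1.72). With lists of equal length the ratio was 0.54, and with the stricter q-value limit -0.057. Psma4 (alpha3) had none in sham and 7 with 133 contacts (111 to 158) at day 6, from anchors that also lie on Hykk and AY074887. Psma3 (alpha7) had the most day 6 contacts of all 48 genes, 414 (375 to 456) against 166 (142 to 193) in sham, and a log2 ratio of 0.22 (-0.04 to 0.49). Its strongest partner in both lists was Arid4a, which encodes a chromatin protein that binds the retinoblastoma protein. Psma2 (alpha2) had 1 interaction with 15 contacts at day 6 but lacked any in sham.

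**Figure D3:**
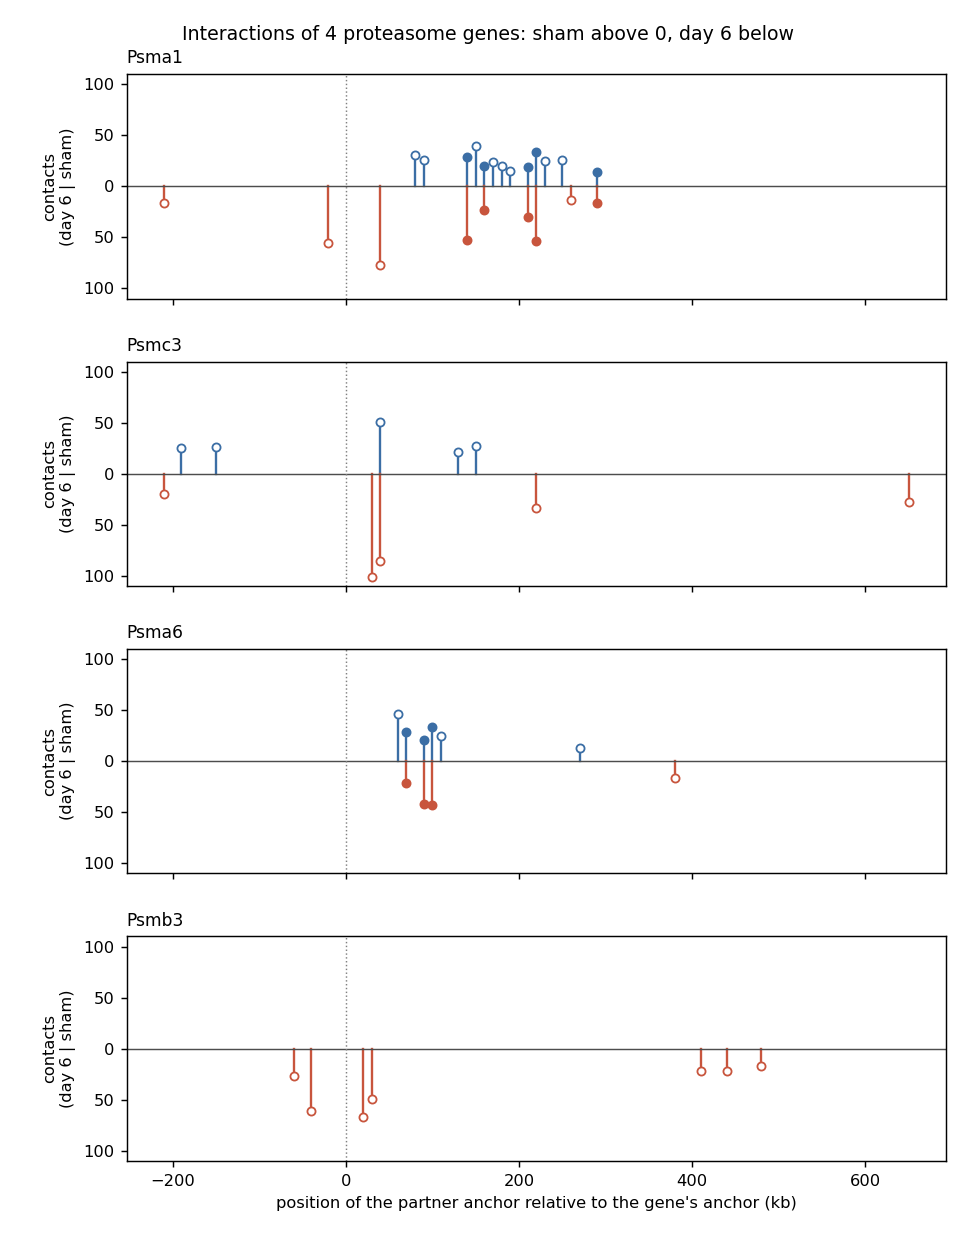
Interactions of Psma1, Psmc3, Psma6 and Psmb3, drawn at the distance of the partner anchor from the gene's anchor in kb, with contacts as height, sham above and day 6 below 0. Filled points are interactions called in both lists. Psma1 shows 13 sham and 9 day 6 interactions, 5 of them in both, and Psmb3 shows 7 at day 6 only.

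The beta subunit genes had few contacts in sham, 157 in all, and 771 at day 6. Of 5 with at least 3 interactions, 2 had more, none fewer and 3 neither. Psmb3, which encodes the noncatalytic beta3, had no interaction in sham and 7 with 265 contacts (234 to 299) at day 6. They came from 2 bins, of which 1 also lies on Pcgf2 and 1 on Pip4k2b, and ran to Pip4k2b itself (67 and 49 contacts), to Mllt6 (61) and to Fbxl20 and Med1 up to 480 kb away. With a flank of 5 kb Psmb3 also had 1 sham interaction with 35 contacts, and a log2 ratio of 2.04. Psmb11, the beta5t subunit of the thymus, had 3 interactions with 49 contacts (36.3 to 64.8) at day 6 but lacked any in sham, from a bin shared with Cdh24. Without the flank, or with lists of equal length, Psmb11 had none.

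The genes of the catalytic subunits of the core, Psmb5, Psmb6 and Psmb7, had interactions in both lists. Psmb5, whose product has the chymotrypsin-like site, had 19 contacts (11.4 to 29.7) in sham, against 28 (18.6 to 40.5) at day 6, in 1 and 2 interactions. Psmb6, with the caspase-like site, had 22 (13.8 to 33.3) and 81 (64.3 to 101), log2 0.70 (0.09 to 1.53). Psmb7, with the trypsin-like site, had 39 (27.7 to 53.3) and 61 (46.7 to 78.4), log2 -0.41 (-1.06 to 0.17). None of them passed the rule of size. Psmb10, whose product replaces that of Psmb7 in the immunoproteasome, had the most sham contacts of the beta group, 66 (51.0 to 84.0) against 190 (164 to 219) at day 6, log2 0.41 (0.02 to 0.85), in a bin shared with Ctrl, Lcat and Pskh1. The remaining beta genes Psmb1, Psmb2 and Psmb4 had at most 2 interactions in a list, with 11, 0 and 0 contacts in sham and 31, 21 and 45 at day 6.

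The 6 ATPase genes of the 19S cap all had interactions at day 6, and 4 had them in sham. By the rule of size 3 had more contacts, 1 fewer and 2 neither. Psmc4 (Rpt3) had 6 interactions with 109 contacts (89.5 to 131) and Psmc6 (Rpt4) 5 with 122 (101 to 146) at day 6, and sham had none for either. Psmc6 kept 1 interaction with lists of equal length, under the minimum of 3. Psmc2 (Rpt1) had 1 interaction with 11 contacts (5.49 to 19.7) in sham and 3 with 99 (80.5 to 121) at day 6, log2 1.80 (1.17 to 3.12). Its sham interaction, to Kmt2e at 1650 kb, was also called at day 6, with 20 contacts. Psmc1 (Rpt2) had 131 contacts (110 to 155) in 6 interactions in sham and 128 (107 to 152) in 7 at day 6, log2 -1.09 (-1.49 to -0.77). That ratio was 0.63 with scaling by modelled contacts and -0.75 without the flank, inside the limit. With lists of equal length no day 6 interaction of Psmc1 was left. Psmc5 (Rpt6) had 45 sham contacts (32.8 to 60.2) and 153 day 6 contacts (130 to 179), log2 0.63 (0.18 to 1.18).

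Psmc3, which encodes Rpt5, had the most contacts of the ATPase genes, 150 (127 to 176) in sham against 268 (237 to 302) at day 6, with 5 interactions each and log2 -0.26 (-0.55 to 0.04). Its neighbour Spi1 encodes PU.1, the ETS factor that macrophages and microglia need. Of its 2 anchors, neighbouring bins on chromosome 2, the second lies on Slc39a13. It holds no base of Psmc3 and was reached only by the 1 kb flank. From this second bin 1 sham interaction ran to a bin of Spi1 with 51 contacts. Without the flank Psmc3 had 3 interactions in each list, with 78 contacts in sham and 139 at day 6. None of those in sham ran to Spi1. At day 6 an interaction from each anchor ran to a neighbouring bin of Spi1, with 101 and 85 contacts. The interaction with 101 contacts was the largest of any proteasome gene, and 0.459% of the day 6 list had as many. At 30 kb it was 1.88 times the count that the caller expected, while the median of the day 6 interactions of proteasome genes was 4.06. Different Spi1 bins were joined in the 2 lists, so none of these interactions was shared.

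The non-ATPase genes of the 19S cap differed among themselves. Of 8 with at least 3 interactions, 4 had more contacts, 1 fewer and 3 neither. Psmd1 (Rpn2) had 5 interactions with 101 contacts (82.3 to 123), Psmd11 (Rpn6) 4 with 83 (66.1 to 103) and Psmd14 (Rpn11, the deubiquitinase of the cap) 3 with 67 (51.9 to 85.1) at day 6, and none of the 3 had any in sham. They had 2, 1 and 2 with lists of equal length, under the minimum of 3. Psmd11 had none with gene starts only, and with a flank of 5 kb Psmd1 also had a sham interaction with 15 contacts (log2 1.93). The interactions of Psmd1 included a pair to Ncl, which encodes nucleolin, with 24 and 27 contacts. Psmd4 (Rpn10, a ubiquitin receptor) had 22 contacts (13.8 to 33.3) in sham, against 121 (100 to 145) at day 6, log2 1.25 (0.70 to 2.09), but 0.11 with a flank of 5 kb.

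Psmd7 (Rpn8) was the non-ATPase gene with fewer contacts, 111 (91.3 to 134) in 6 interactions in sham and 101 (82.3 to 123) in 5 at day 6. Its log2 ratio was -1.18 (-1.64 to -0.83), but 0.52 with scaling by modelled contacts. Of its interactions, 4 in sham and 3 at day 6 ran to Wwp2, which encodes a ubiquitin ligase. Psmd8 (Rpn12) had the most contacts of the group, 116 (95.9 to 139) and 292 (259 to 327), log2 0.23 (-0.08 to 0.56). Its 2 interactions with the bin of Kcnk6 and Yif1b were called in both lists, with 41 and 41 contacts in sham and 47 and 40 at day 6. Psmd3 (Rpn3) had 62 (47.5 to 79.5) and 193 (167 to 222), log2 0.52 (0.12 to 0.98), with 1 of its bins also on Csf3, and Psmd12 (Rpn5) had 98 (79.6 to 119) and 135 (113 to 160), log2 -0.61 (-1.02 to -0.25). Psmd2 (Rpn1) and Psmd13 (Rpn9) had 1 interaction each at day 6, with 27 and 14 contacts, and none in sham.

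All 4 activator genes with interactions had more contacts at day 6, but with lists of equal length Psme3 alone kept at least 3 interactions. Psme1 and Psme2, which encode the alpha and beta chains of the interferon-inducible PA28, are neighbours on chromosome 14 and share a bin. At day 6 Psme1 had 5 interactions with 135 contacts (113 to 160) and Psme2 7 with 184 (158 to 213), and the 5 of Psme1 are among the 7 of Psme2. In sham Psme1 had none and Psme2 1 with 25 contacts (16.2 to 36.9), log2 1.66 (1.17 to 2.45). With lists of equal length the ratio of Psme2 was 0.55, and with the stricter q-value limit -0.43. Psme1 had 2 interactions with lists of equal length and none with gene starts only. Partners at day 6 included Dcaf11 (51 contacts), Ipo4 with Rec8 (36) and Dhrs1 with Nop9 (28). Psme2 also contacted the bin of Dhrs1 and Nop9 in sham, with 25 contacts, from its other bin.

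Psme3, which encodes the nuclear activator PA28 gamma, had 7 interactions with 147 contacts (124 to 173) at day 6 but lacked any in sham, with 1 of its 2 bins also lying on Aoc2 and Aoc3. They ran to 7 places between 100 and 900 kb away, among them Stat3, Ezh1 and the bin of Brca1 and Nbr1. Psme4, which encodes PA200, had 10 contacts (4.80 to 18.4) in 1 sham interaction and 72 (56.3 to 90.7) in 4 at day 6, log2 1.48 (0.79 to 2.87), but 0.82 with gene starts only. The genes that are named for the proteasome but encode no part of it also had interactions at day 6 alone. Psmc3ip had 4 with 154 contacts (131 to 180), of which 2 ran to Stat3. With a flank of 5 kb it had 4 in sham too, with 104 contacts (log2 0.85), and with lists of equal length 2 at day 6. Psme3ip1 had 7 with 155 (132 to 181). Without these 2, 16 of 34 genes had more contacts and the median log2 ratio was 0.71.

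Of the assembly chaperone genes, 1 of 5 with at least 3 interactions had more contacts and 4 had neither. Psmd5, a chaperone of the 19S base, had 3 interactions with 56 contacts (42.3 to 72.7) at day 6 but lacked any in sham. With lists of equal length it had none in either. Of the 3, 1 ran to the bin of Hspa5 and Rabepk (24 contacts), where Hspa5 encodes the chaperone BiP of the endoplasmic reticulum. Psmd9, another base chaperone, had the most day 6 contacts of the group, 242 (212 to 274) in 13 interactions, against 68 (52.8 to 86.2) in 5 in sham. Its log2 ratio of 0.71 (0.34 to 1.14) was the highest below the limit, whereas the lowest above -1 was the -0.61 of Psmd12. At day 6 Psmd9 contacted the gene of the purinergic receptor P2rx7, 540 kb away, with 14 contacts. Psmd10, which encodes gankyrin and is the only one of the 48 on the X chromosome, had 1 interaction with 13 contacts at day 6.

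The 4 PAC chaperones of the core, Psmg1 to Psmg4, all had interactions in both lists. Psmg2 had the most sham contacts of the chaperone genes, 71 (55.5 to 89.6) against 197 (170 to 227) at day 6, log2 0.36 (-0.02 to 0.79). Psmg3 had 34 and 49 contacts and Psmg4 41 and 98. Psmg1 had 30 contacts (20.2 to 42.8) in 2 interactions in sham and 23 (14.6 to 34.5) in 1 at day 6, too few for the rule of size. Its shared interaction ran 290 kb to Ets2, an ETS factor gene, with 15 contacts in sham and 23 at day 6.

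**Figure D4:**
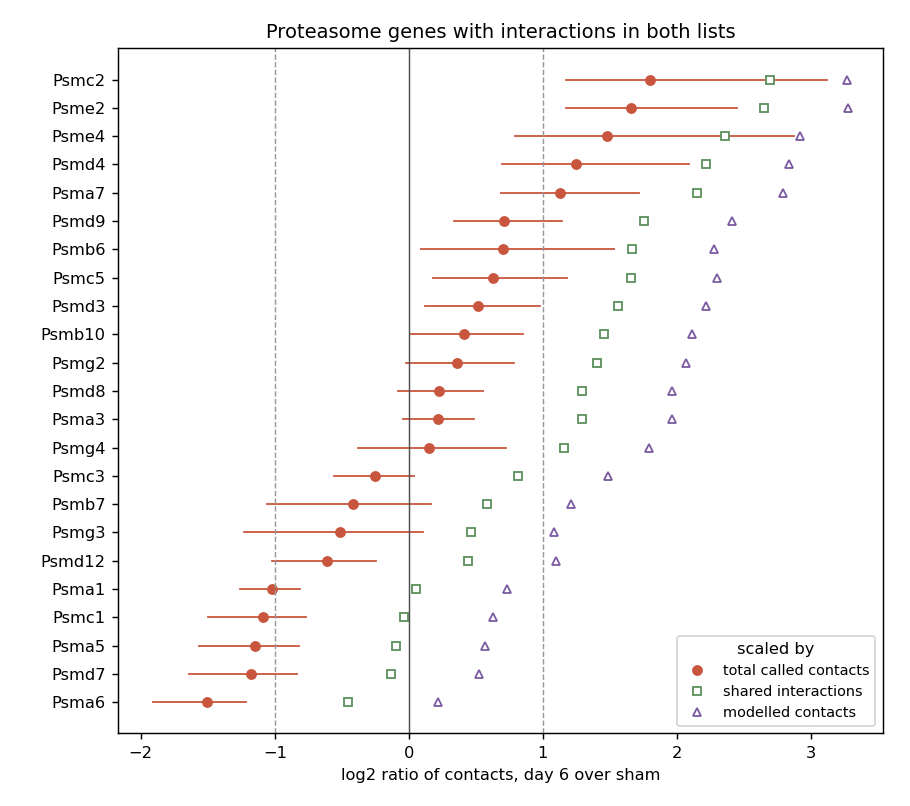
Log2 ratio of contacts of day 6 over sham for the 23 genes with at least 3 interactions in 1 list and interactions in both, scaled by total called contacts (red, with 95% intervals from counting error), by shared interactions (green squares) and by modelled contacts (purple triangles). The intervals leave out the prior, which the points include. Dashed lines mark 1 and -1. The 5 genes at or below -1 in red, from Psma6 at -1.51 to Psma1 at -1.02, lie above 0 in purple.

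Interactions called in both lists numbered 22, on 13 of the genes. They were 25.6% (95% Clopper-Pearson interval 16.8 to 36.1%) of the sham interactions of proteasome genes, against 24.6% of all sham interactions, and 10.1% (6.46 to 14.9%) of those at day 6, against 10.9%. These shares did not stand apart from the whole lists. In unscaled counts 14 of the 22 were higher at day 6, 7 lower and 1 equal, with a median log2 ratio of 0.24, against 0.00 over all shared interactions. The medians were 29.5 contacts in sham and 28.5 at day 6. The largest log2 ratios of unscaled counts were those of Psmb7 to Ppp6c (1.05, from 13 and 27 contacts) and of Psma6 to Nfkbia (1.00, from 21 and 42).

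Of the sham interactions, 93.0% had both anchors among the day 6 anchors, against 86.0% of all sham interactions. At day 6, 40.6% had both anchors among those of sham (44.8% of all) and 25.8% had neither (17.1% of all). The 13 genes with at least 3 interactions at day 6 and without any in sham had 66 distinct interactions. For 21 of these (31.8%) the partner bin was an anchor in sham, while the gene's own bin was not. For the other 45 neither end was an anchor in sham.

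The interactions of the proteasome genes ran a median of 160 kb in sham and 210 kb at day 6, against 140 and 160 kb over all interactions. Those under 50 kb were 3 of 86 in sham (3.49%, 0.725 to 9.86%), against 12.8% of all, and 14.7% (10.3 to 20.2%) at day 6, against 16.7%. Those of 1 to 2 Mb were 6.98% (2.60 to 14.6%) in sham, against 2.71% of all, and 26 of 217 at day 6 (7.98 to 17.1%), against 9.58%. Interactions of 1 gene share an anchor, so that these intervals are too narrow. The other end lay on a coding gene in 88.4% (79.7 to 94.3%) of cases in sham and 87.7% (82.6 to 91.7%) at day 6, against 78.5% and 82.4% for the ends on any coding gene. The partners held 68 distinct coding genes in sham and 202 at day 6. No interaction joined 2 different proteasome genes, and 2 day 6 interactions joined bins of the same gene, in Psmc6 and Psmd14, with 34 contacts each.

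Coverage of the anchors was a second readout, which the sums of contacts do not use directly. Coverage is given as relative coverage, the deposited read count of a bin over 1 constant per library. By the column headers the caller's expected counts and q-values were corrected for this ratio, and only anchors of called interactions have a value. The readouts are thus not independent. Of the bins on proteasome genes, 35 were anchors in both lists. Between the libraries (day 6 over sham) they had a median log2 ratio of 0.33 (interquartile range -0.03 to 0.52), and 24 of the 35 (68.6%) were above 0. Over all 16670 common anchors the median was -0.03, with 46.1% above 0, and over those on a coding gene 0.02. Anchors with a coding promoter were higher in general, at 0.22 with 71.9% above 0, and the 24 such bins of proteasome genes had a median of 0.38 with 75.0% above 0. Proteasome bins held a promoter more often, at 67.4% of their interaction ends in sham and 65.3% at day 6, against 36.1% and 40.2% of ends on any coding gene. The part of promoters in the higher coverage was not tested.

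Single bins show how coverage and contacts differed. The start of Psma1 had a relative coverage of 1.46 in sham and 1.96 at day 6, so that it was higher at day 6 while its share of called contacts was lower. The bins of Psma5, of which the second lies past its end on Sort1, had 1.03 and 1.11 in sham. At day 6 they had 0.78 and 0.89, so that both were lower. The start of Psme4 had 1.74 in sham and 2.91 at day 6, that of Psmb6 1.33 and 2.09, and that of Psmc5 1.80 and 2.61. The highest relative coverage at day 6 was 3.38, at the start of Psmd1, which was no anchor in sham. In sham the anchors of proteasome genes ranged from 0.57 to 1.80.

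**Figure D5:**
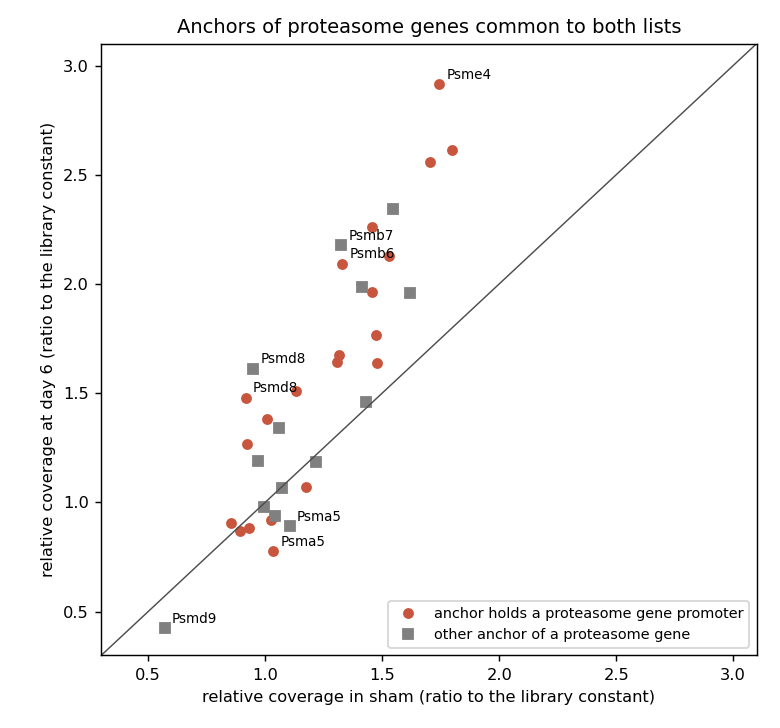
Relative coverage (ratio to the library constant) of the 35 bins on proteasome genes that were anchors in both lists, sham on the horizontal and day 6 on the vertical axis. Red circles hold an annotated promoter of a proteasome gene, grey squares do not, and the line marks equal values. Of the 35 points 24 lie above the line.

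Other genes of the pathway were taken from a list of 28, with receptors, shuttles, regulators, ubiquitin genes and the immunoproteasome genes. Of these, 18 had an interaction in sham (64.3%, background 43.0%) and 25 at day 6 (89.3%, background 61.3%). Of 19 with at least 3 interactions, 8 had more contacts (42.1%, background 39.1%), 2 fewer (background 10.3%) and 9 neither. The share with more was thus close to that of all genes, and the list was not tested against them. Among the 8 listed genes with more contacts, some had no interaction in sham. Vcp, the segregase that extracts ubiquitinated proteins, had 7 interactions with 164 contacts and Ubqln1, a shuttle factor, 6 with 127 at day 6. Among those with fewer, Uba1, the ubiquitin-activating enzyme, had 143 sham contacts against 105 at day 6, with a log2 ratio of -1.49 (-1.92 to -1.17). The transcription factor gene Nfe2l1, whose product induces proteasome genes when the proteasome is inhibited, had 3 interactions with 61 contacts at day 6 but lacked any in sham. Nfe2l2 had 314 and 792, log2 0.23 (0.05 to 0.43). The immunoproteasome genes Psmb8 and Psmb9 had 100 and 99 contacts in sham and 203 and 147 at day 6, log2 -0.07 (-0.43 to 0.28) and -0.51 (-0.91 to -0.15), and neither passed the rule of size.

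Gene families of similar housekeeping kind are set beside these counts. Of 90 cytosolic ribosomal protein genes, 69 had an interaction in sham (76.7%) and 78 at day 6 (86.7%). Of 65 with at least 3 interactions 23 had more and 6 fewer contacts (35.4% and 9.23%). Of 37 ubiquitin conjugating enzyme genes, 20 (54.1%) and 32 (86.5%) had an interaction. Of 24 with at least 3 interactions 13 had more and 1 fewer (54.2% and 4.17%). Interactions at day 6 alone were called for 13 of the ribosomal protein genes (14.4%) and 12 of the conjugating enzyme genes (32.4%). Of the proteasome genes, 54.2% had an interaction in sham and 93.8% at day 6. At 50.0% and 13.9% with more and fewer contacts and 39.6% at day 6 alone, they were not tested against these families.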

How the data were processed

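H3K27ac HiChIP of 1 sham and 1 day 6 library was analysed from the lists of called interactions. Per the file headers and values, the deposited lists hold whole-number contact counts per pair of 10 kb bins, read counts (coverage) per anchor, the ratio of coverage to a constant of the library, and a p-value and q-value per interaction. Per the submitters' processing notes HiC-Pro 3.1.0 and the build mm10 (GRCm38) were used; for the interaction caller no name is given in the sources used here. All deposited q-values were under 0.001.

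Genes came from the RefSeq table of GRCm38. Contacts were summed per gene, and the same was done for all protein-coding genes as background. Python 3.11.15, pandas 2.3.3 and scipy 1.17.1 were used. Poisson, Clopper-Pearson and ratio intervals (95%) cover counting error only, since each group was 1 library. The ratio intervals leave out the prior that the log2 ratios include, so that an interval need not centre on its ratio. The mismatch is largest for genes with few sham contacts. The counts carry no molecular identifiers. The sums were tested on simulated data, where 200 of 200 genes with a simulated 4-fold passed the limit of size. Both simulated libraries were drawn from the sham list and held the same interactions. The simulation thus checks the sums, and cannot check calls of genes with interactions in 1 list only or lists of unequal length. The genes, the pathway and marker lists and the size rule were chosen with earlier results of these data known. Values are given for every gene past the size rule, for those with the most contacts in each role, for those without interactions and for those next to the limits. Of the pathway list, the genes with the 2 highest and the 2 lowest ratios were to be named, of which 1 is not reported here, and the regulators and immunoproteasome genes were added after their values were seen. Alternatives changed the flank, list length, q-value limit, scaling, prior count and minimum.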

Additional observations from a re-analysis of the deposited data

How the results depend on the processing

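No library had a replicate, and no alternative matched the depth of the libraries. No paired analysis was possible because each group had 1 library. The number of genes with more contacts, 18 of 36, was 7 of 23 with lists of equal length (30.4%, all genes 30.1%), 11 of 22 with a q-value limit of 1e-05 (50%, all genes 47.6%) and 31 of 36 with scaling by modelled contacts (86.1%, all genes 84%). The number with fewer, 5 of 36 (all genes 10.3%), was 3 of 34 without the flank (10.2%) and 3 of 23 with lists of equal length (17.9%). It was 3 of 22 with the q-value limit (12.6%) and 3 of 36 with a prior of 20 contacts (8.67%). With scaling by shared interactions or by modelled contacts it was 0 (all genes 1.93% and 0.82%). With the q-value limit 15 genes had an interaction in sham, instead of 26.

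The median log2 ratio, 0.92, was 0.57 with gene starts only (all genes 0.63), 0.39 with lists of equal length, 2.17 with the q-value limit (all genes 0.83), 1.95 with scaling by shared interactions, 2.60 by modelled contacts, 0.81 with a prior of 20 and 0.71 without Psmc3ip and Psme3ip1. The share of day 6 partners on a coding gene, 87.7%, was 93.0% with a flank of 5 kb and 54.9% with gene starts only, where the partner too had to hold a start. The share of sham interactions also called at day 6, 25.6%, was 59.3% when anchors could lie 1 bin apart.

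With the q-value limit the ratios of Psma7 and Psme2 turned to -0.057 and -0.43. With scaling by shared interactions that of Psma1 turned to 0.056. With scaling by modelled contacts those of Psma1, Psma5, Psma6, Psmc1 and Psmd7 turned to 0.73, 0.57, 0.22, 0.63 and 0.52. The cause was not tested. Of the other values of single genes, 37 kept direction but not the call: 23 fell inside the limit and 14 stayed past it with fewer than 3 interactions. Genes that lost all interactions in a setting have no value there.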
